A study of Homo sapiens and Mus musculus with 10 samples.

Results

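The RUNX family and its partner subunit were followed through the accessible chromatin of 4 human cell lines. The 4 genes RUNX1, RUNX2, RUNX3 and CBFB were chosen by name, out of 19970 protein-coding genes of GENCODE release 44. ATAC-seq peaks were listed within 1 kb of each annotated start site, inside each gene body and within 200 kb on either side. The 48 annotated transcripts of the 4 genes gave 20 clusters of start sites, of which 10 belong to RUNX1, 3 to RUNX2, 2 to RUNX3 and 5 to CBFB.

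ATAC-seq reads out open chromatin through the places where the Tn5 transposase can insert adapters. It was run in bulk on sorted nuclei of untreated GM12878 (B-lymphoblastoid cells transformed by Epstein-Barr virus), HEK293T (embryonic kidney cells carrying SV40 large T antigen), HFF1 (foreskin fibroblasts) and K562 (an erythroleukaemia line), with 2 replicates per line, 8 human libraries in all. Each line is a single established line standing for its cell type, and 2 further libraries from mouse embryonic stem cells were not used. The deposited lists held between 52137 and 127359 peaks per human library on the autosomes and X, with HEK293T shortest and HFF1 longest. The background level of a library (its lowest common local background, which rises with depth and with reads outside peaks) was 1.71 and 1.73 in GM12878, 0.465 and 0.466 in HEK293T, 2.43 and 2.06 in HFF1, and 2.21 and 1.97 in K562. The lists therefore differ in what they could detect, and HEK293T had the lowest level. The labels do not say whether the replicates came from separate cultures, so the spread between them may be technical, and recovered summit heights of matched peaks varied by 0.631 to 0.698 of the binomial sampling variance in the 4 lines, less than sampling noise. No line stood apart in this, and each was counted as 2 replicates. Among the cell type markers reported, MS4A1, CD79A and CD79B had a start site with a peak in both replicates in GM12878 alone, GATA1 and TAL1 in K562 alone, COL3A1 in HFF1 alone, and PAX2 and LHX1 in HEK293T alone. CD22, EPOR, NFE2 and COL1A1 were called in all 4 lines, and COL1A2, PRRX1, TWIST1, EYA1 and SALL1 in 2 or 3.

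RUNX proteins bind DNA through the Runt domain, and CBFB encodes the partner subunit that does not touch DNA itself but strengthens binding. RUNX1 is required for blood stem cell formation and is a frequent target of leukaemia translocations, RUNX2 is the master regulator of bone-forming cells, and RUNX3 acts in T cells, B cells and sensory neurons and is known to be induced in B cells transformed by Epstein-Barr virus. Each RUNX gene has a distal promoter and a proximal promoter, whose transcripts encode proteins with different N-termini, and the family is known for RUNX sites in its own distal promoters. In these annotations the distal start lies 159.6 kb before the proximal start in RUNX1, 93.9 kb in RUNX2 and 34.8 kb in RUNX3.

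The distal promoters of RUNX2 and RUNX3 carry the same tandem of RUNX sites, which is shown here because these promoters were each accessible in 1 line. The motif TGTGGTT was searched on both strands in the RefSeq promoters of GRCh38.p14, which run from 250 bases before to 50 after each start. It had 3 matches in the RUNX2 distal window and 2 in the RUNX3 distal window, and none in the proximal windows of RUNX1, RUNX2 and RUNX3. Over all 35116 RefSeq promoters, 4.27% held at least 1 match and 0.145% held at least 2. A tandem of 2 matches separated by 1 base occurred in 2 of the 35116 promoters, and these were the RUNX2 and RUNX3 distal promoters. Capitals mark the matches, read on the strand of the gene.
RUNX2 distal, chr6:45328345-45328359 (+): AACCACAgAACCACA
RUNX3 distal, chr1:24965128-24965142 (minus strand): AACCACAgAACCACA
In RUNX2 the tandem begins at base 16 after the RefSeq start and lies in an exon, and in RUNX3 it begins at -132 from the RefSeq start and lies in no exon. The RUNX1 distal and CBFB promoters were not matched in the RefSeq table.

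The surrounding RUNX3 distal promoter, up to its first annotated exon, is given below with the tandem in capitals.
RUNX3 distal, chr1:24965122-24965260 (minus strand): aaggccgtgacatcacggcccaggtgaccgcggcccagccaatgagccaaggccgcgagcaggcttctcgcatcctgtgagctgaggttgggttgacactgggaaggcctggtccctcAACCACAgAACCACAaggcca

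Open proximal promoters were shared between lines, whereas each distal RUNX promoter had a call in 1 line. A call of a start-site cluster required a peak in its window in each replicate of the line. By this rule GM12878 had 6 of the 20 clusters, HEK293T 3, HFF1 6 and K562 4, against 34.2%, 28.4%, 37.3% and 31.7% of all 55121 clusters of protein-coding genes in the same lines. Only 3 of the 20 were called in all 4 lines (23.3% of all clusters were). A further 5 were called in exactly 1 line and 11 in none. Shares over all clusters were not computed for these counts, so they are not read as unusual. The members' shares thus lay below the background in each line. The 3 shared clusters were RUNX1 proximal, RUNX2 proximal and the CBFB main start. At RUNX2 proximal the peaks of the 2 GM12878 replicates did not overlap, so that call joins separate peaks. Differences between single lines were not tested, because a permutation of 2 libraries against 2 has too few arrangements to reach a p of 0.05.

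**Figure D1:**
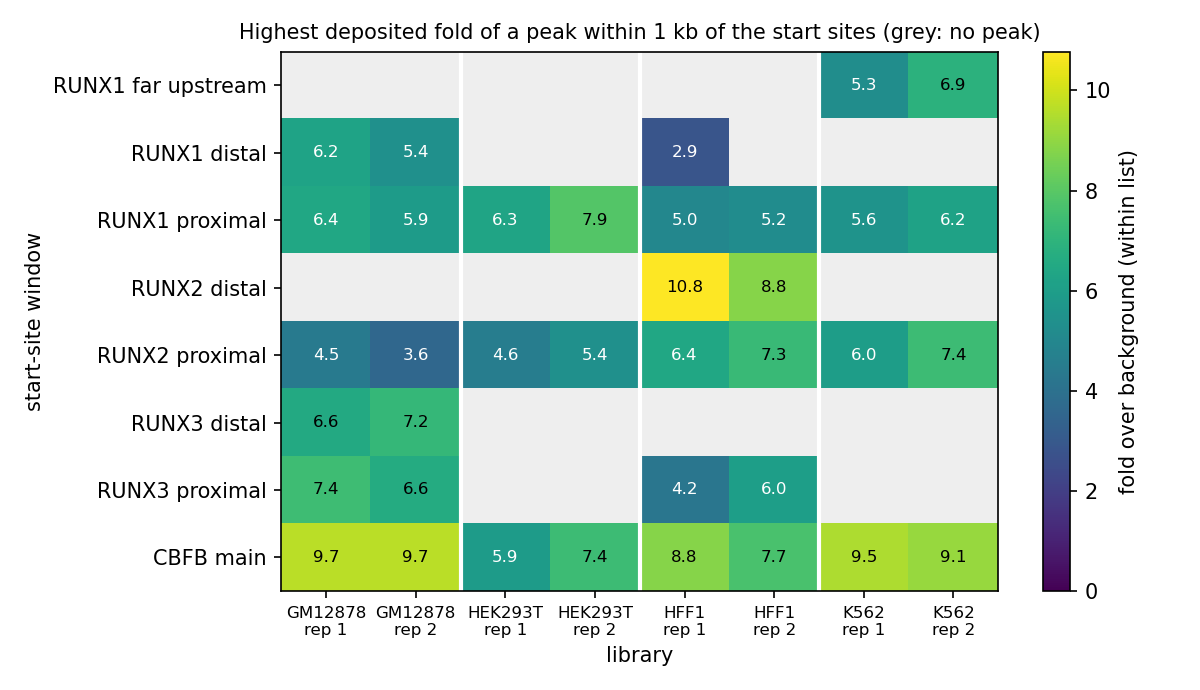
Highest deposited fold over local background of any peak within 1 kb of each start-site cluster (rows) in each of the 8 human libraries (columns), with grey where the list has no peak. Folds describe a peak within its own list. CBFB, RUNX1 proximal and RUNX2 proximal are filled in all 8 libraries, RUNX3 distal in GM12878 alone and RUNX2 distal in HFF1 alone.

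RUNX1, the haematopoietic member, had an accessible proximal promoter in every library. The highest deposited folds of peaks in this window (height over local background, the authors' value, read only within its list) were 6.42 and 5.90 in GM12878, 6.27 and 7.88 in HEK293T, 4.99 and 5.24 in HFF1, and 5.55 and 6.19 in K562. Each library had 3 or 4 separate peaks in that window, so the proximal start region was a cluster of summits in every line. The call held in all 4 lines under every alternative tried.

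The RUNX1 distal start was called in GM12878 only. Its peaks there had folds of 6.24 and 5.43, with summits 403 and 430 bp downstream of the start and recovered heights of 56 and 50 reads. HFF1 had a peak in replicate 1 alone, at 860 bp with a fold of 2.86, and HEK293T and K562 had none. The GM12878 call held when heights were scaled to the lowest background level. A region 2.0 kb upstream, at chr21:35051082-35051604, was called in all 4 lines, and a window of 2 kb in place of 1 kb accordingly called the distal start in all 4. Folds in this upstream region were 5.13 and 5.27 in GM12878, 15.3 and 15.6 in HEK293T, 4.85 and 4.64 in HFF1, and 11.0 and 10.5 in K562. The GM12878 peaks thus overlapped the annotated distal starts with summits downstream of them, while open chromatin 2.0 kb upstream was common to the lines.

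The annotated RUNX1 body reaches far upstream of the distal start because of transcripts with upstream starts, of which 1 begins at 36004667 on chromosome 21 and 1 at 35984749. That far upstream start, whose window is shared with LINC01436, was called in K562 only, with folds of 5.29 and 6.91. The K562 call was lost when heights were scaled to the lowest background level and among the strongest 50000 peaks per library. The other 7 RUNX1 clusters were called in no line.

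RUNX2, the osteoblast regulator, had peaks at its proximal start in all 8 libraries and at its distal start in HFF1 only. Distal peaks in HFF1 had folds of 10.8 and 8.82, heights of 36 and 26 reads and summits 49 and 42 bp downstream of the GENCODE start. The other 6 libraries had no peak there. The RUNX sites shown above lie inside the HFF1 replicate 2 peak, which ran from 45327961 to 45328552, and just past the replicate 1 peak, which ended at 45328340. The HFF1 call held at the lowest background level but was lost among the strongest 50000 peaks.

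At the proximal RUNX2 start, folds were 6.42 and 7.31 in HFF1 and 6.01 and 7.40 in K562, beside 4.57 and 5.41 in HEK293T and 4.46 and 3.60 in GM12878. The GM12878 peaks were weak in their lists, ranking at 84.0% and 96.5% from the top, and lay at separate places in the window, one from 45422037 and the other from 45422721. HFF1 and K562 alone kept the call at a −log10 q of at least 5, and scaling to the lowest background level removed GM12878. The gene ENSG00000271857 also starts in this window, and peaks of these genes cannot be told apart there. The third RUNX2 cluster was called in no line.

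RUNX3 was the member with the most line-restricted promoters. Its distal start was called in GM12878 only, with folds of 6.57 and 7.17, recovered heights of 121 and 137 reads and summits at -62 and -14 bp from the start. The RUNX tandem printed above, at 24965128 to 24965142 of chromosome 1, lies inside both GM12878 peaks, and the replicate 2 summit at 24965135 falls within it. No peak was listed there in HEK293T, HFF1 or K562. Both GM12878 peaks passed at the lowest background level. Whether depth has a part in the missing peaks of the other lines was not tested beyond this. The median summit height was 35 reads in both GM12878 lists, 16 in both HEK293T lists, 33 and 30 in HFF1, and 30 in both K562 lists.

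The RUNX3 proximal start was called in GM12878 and HFF1. GM12878 folds were 7.42 and 6.63, with heights of 157 and 148 reads, ranking the peaks within the top 5.34% and 8.70% of their lists. HFF1 folds were 4.24 and 6.04, with heights of 41 and 53 reads. Scaling to the lowest background level or keeping the strongest 50000 peaks left GM12878 alone. GM12878 was thus the line in which both RUNX3 promoters were open. With a window of 2 kb, HFF1 also had a call at the distal start, from a region at chr1:24966525-24966963 that was called in GM12878 and HFF1.

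CBFB, which has no pair of alternative promoters of this kind, had its main start called in all 4 lines under every alternative. Folds were 9.67 and 9.67 in GM12878, 5.93 and 7.37 in HEK293T, 8.82 and 7.68 in HFF1, and 9.46 and 9.12 in K562. Summits lay within 21 bp of an annotated start. One further CBFB cluster was called in HFF1 from a peak at the edge of its window, with summits at -1002 and -959 bp, and that call was lost with a window of 500 bp, with a summit rule, at the lowest background level and among the strongest 50000 peaks. The remaining 3 CBFB clusters were called in no line.

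A proximal start called where the distal start was not was seen at RUNX1 in HEK293T, HFF1 and K562, at RUNX2 in GM12878, HEK293T and K562, and at RUNX3 in HFF1. The RUNX2 call in GM12878 joins peaks at separate places in the window. Among 7796 genes with at least 2 coding start-site clusters, the last cluster was called and the first was not in 7.8% in GM12878, 7.31% in HEK293T, 7.26% in HFF1 and 7.68% in K562. Both were called in 14.7%, 8.02%, 17.2% and 12.2%. The distal and the proximal start were both called at RUNX1 and RUNX3 in GM12878 and at RUNX2 in HFF1. The shares take the first and last coding cluster of each gene. At RUNX1, which has further start sites, these need not be the distal and proximal starts. The shares are given as background for a few genes, with no test.

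The number of peaks over each locus (the gene body and 200 kb on either side) differed between lines by far more than between replicates. RUNX1 had 60 and 62 peaks in GM12878, 33 and 34 in HEK293T, 147 and 143 in HFF1, and 69 and 55 in K562. HFF1 was highest and HEK293T lowest, and GM12878 overlapped with K562. RUNX2 had 27 and 26 peaks in GM12878, 5 and 7 in HEK293T, 53 and 52 in HFF1, and 18 and 17 in K562, with no overlap between lines. RUNX3 had 54 and 52 peaks in GM12878, 8 and 10 in HEK293T, 50 and 48 in HFF1, and 21 and 13 in K562, and GM12878 was highest. CBFB had 58 and 59 peaks in GM12878, 28 and 31 in HEK293T, 68 and 61 in HFF1, and 44 and 43 in K562.

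Eta squared, the part of the variance in peak number that lies between lines, was 0.992 for RUNX1, 0.999 for RUNX2, 0.987 for RUNX3 and 0.980 for CBFB. In the exact one-sided permutation test over all ways to pair the 8 libraries, p was 0.0286 for RUNX1 and 0.00952 for the other 3 genes, the smallest the design allows. Benjamini-Hochberg adjustment over 19940 genes gave adjusted p of 0.0379 for RUNX1 and 0.0265 for RUNX2, RUNX3 and CBFB by that permutation test. Of those genes 78.5% passed an adjusted p of 0.05, and the median eta squared was 0.972, so line differences in peak number were the rule and not a feature of the RUNX family. When only the gene body was counted, adjusted p was 0.0983 for each member and 0% of 16702 genes passed.

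**Figure D2:**
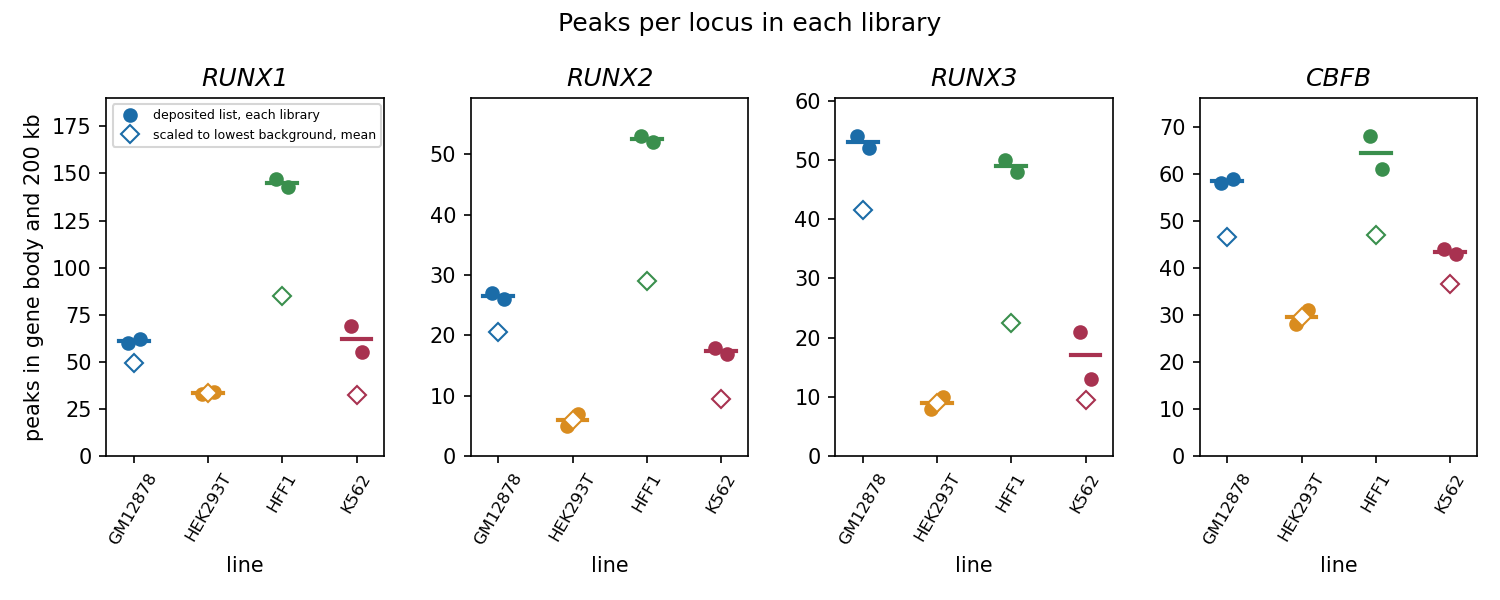
Peaks in the gene body and 200 kb on either side for each gene and line. Filled points are the 2 libraries of a line, bars their mean, and open diamonds the mean after heights were scaled to the lowest background level. RUNX3 is highest in GM12878 on both scales (53 and 41.5), and RUNX1 and RUNX2 are highest in HFF1.

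Scaling recovered heights to the lowest background level kept the order at the top. RUNX3 then had 41.5 ± 0.707 peaks in GM12878, 9 ± 1.41 in HEK293T, 22.5 ± 0.707 in HFF1 and 9.5 ± 0.707 in K562 (mean ± SD, n = 2 each). RUNX1 had 49.5 ± 2.12 in GM12878, 33.5 ± 0.707 in HEK293T, 85 ± 1.41 in HFF1 and 32.5 ± 3.54 in K562, on the same scale. RUNX2 had 20.5 ± 0.707, 6 ± 1.41, 29 ± 0 and 9.5 ± 0.707 in the same order of lines. On this scale HEK293T and K562 did not differ beyond their spread at RUNX1 and RUNX3. CBFB had 46.5 ± 6.36 in GM12878, 29.5 ± 2.12 in HEK293T, 47 ± 4.24 in HFF1 and 36.5 ± 2.12 in K562, and its adjusted p by the permutation test rose to 0.0829. Among the strongest 50000 peaks per library, RUNX1 and RUNX2 stayed highest in HFF1 and RUNX3 in GM12878. CBFB was then highest in K562 (38 ± 0), against 34.5 ± 0.707 in GM12878 and 33.5 ± 0.707 in HFF1. RUNX1 then had 29.5 ± 0.707 in GM12878 and 30.5 ± 0.707 in HEK293T, so HEK293T was no longer lowest there.

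Peak density per kb, ranked among all protein-coding loci of the same line, placed the genes differently. RUNX3 stood at the 92.6 percentile in GM12878 and 86.9 in HFF1, against 27.4 in HEK293T and 36.7 in K562. RUNX2 stood at 55.8 in HFF1, 25.3 in GM12878, 20.1 in K562 and 4.97 in HEK293T. RUNX1 stood at 74.7 in HFF1 and between 27.4 and 39.1 in the other lines, and CBFB, which sits in a gene-dense stretch of chromosome 16, between 89.5 and 98.3 in all 4.

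The genes whose counts over the 8 libraries were most like each member's were named by the smallest summed absolute difference. For RUNX3 they were MYO5B, ARFGAP3 and LITAF, with differences of 22, 24 and 25 against a RUNX3 total of 256 peaks. For RUNX2 they were PTCD2, SRBD1 and ADAMTS12, at 15, 16 and 18 against 205. For CBFB they were TOM1L2, CDC42EP2 and GRK5, at 21, 22 and 22 against 392. RUNX1 had no near match, with RAD51B, NAV1 and CAMTA1 at 134, 135 and 137 against 603.

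Several segments of the RUNX genes held more peaks in 1 line than in the others, and the spread of peaks over segments was not tested. In RUNX1 the stretch upstream of the distal start held the most peaks in every line. It is also by far the longest segment, at 1155 kb beside 160, 102 and 200 kb for the others, so its count is not a density. Between the RUNX2 starts all 8 libraries had 2 to 4 peaks. Between the proximal start and the end of RUNX2, HFF1 had 37 and 31 peaks, beside 9 and 9 in GM12878, 1 and 3 in HEK293T and 9 and 6 in K562. Between the distal and the proximal start of RUNX3, GM12878 had 9 and 7 peaks and the other 6 libraries 1 to 3 each. Upstream of the RUNX3 distal start, GM12878 had 25 and 22 peaks, HFF1 15 and 17, K562 8 and 3, and HEK293T 2 and 2.

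In RUNX1, HFF1 had 24 and 21 peaks between the distal and proximal starts, against 6 and 6 in GM12878, 4 and 4 in HEK293T and 10 and 5 in K562. Upstream of the distal start, HFF1 had 92 and 92 peaks and the other 6 libraries 18 to 44. When the RUNX1 body was ended at the distal start, HFF1 still had the most peaks, 73 ± 4.24, against 35 ± 0 in GM12878, 16.5 ± 0.707 in HEK293T and 29.5 ± 4.95 in K562 (mean ± SD, n = 2 each). SETD4, CBR1 and DOP1B start in the upstream flank, and a peak cannot be assigned to 1 gene by position.

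**Figure D3:**
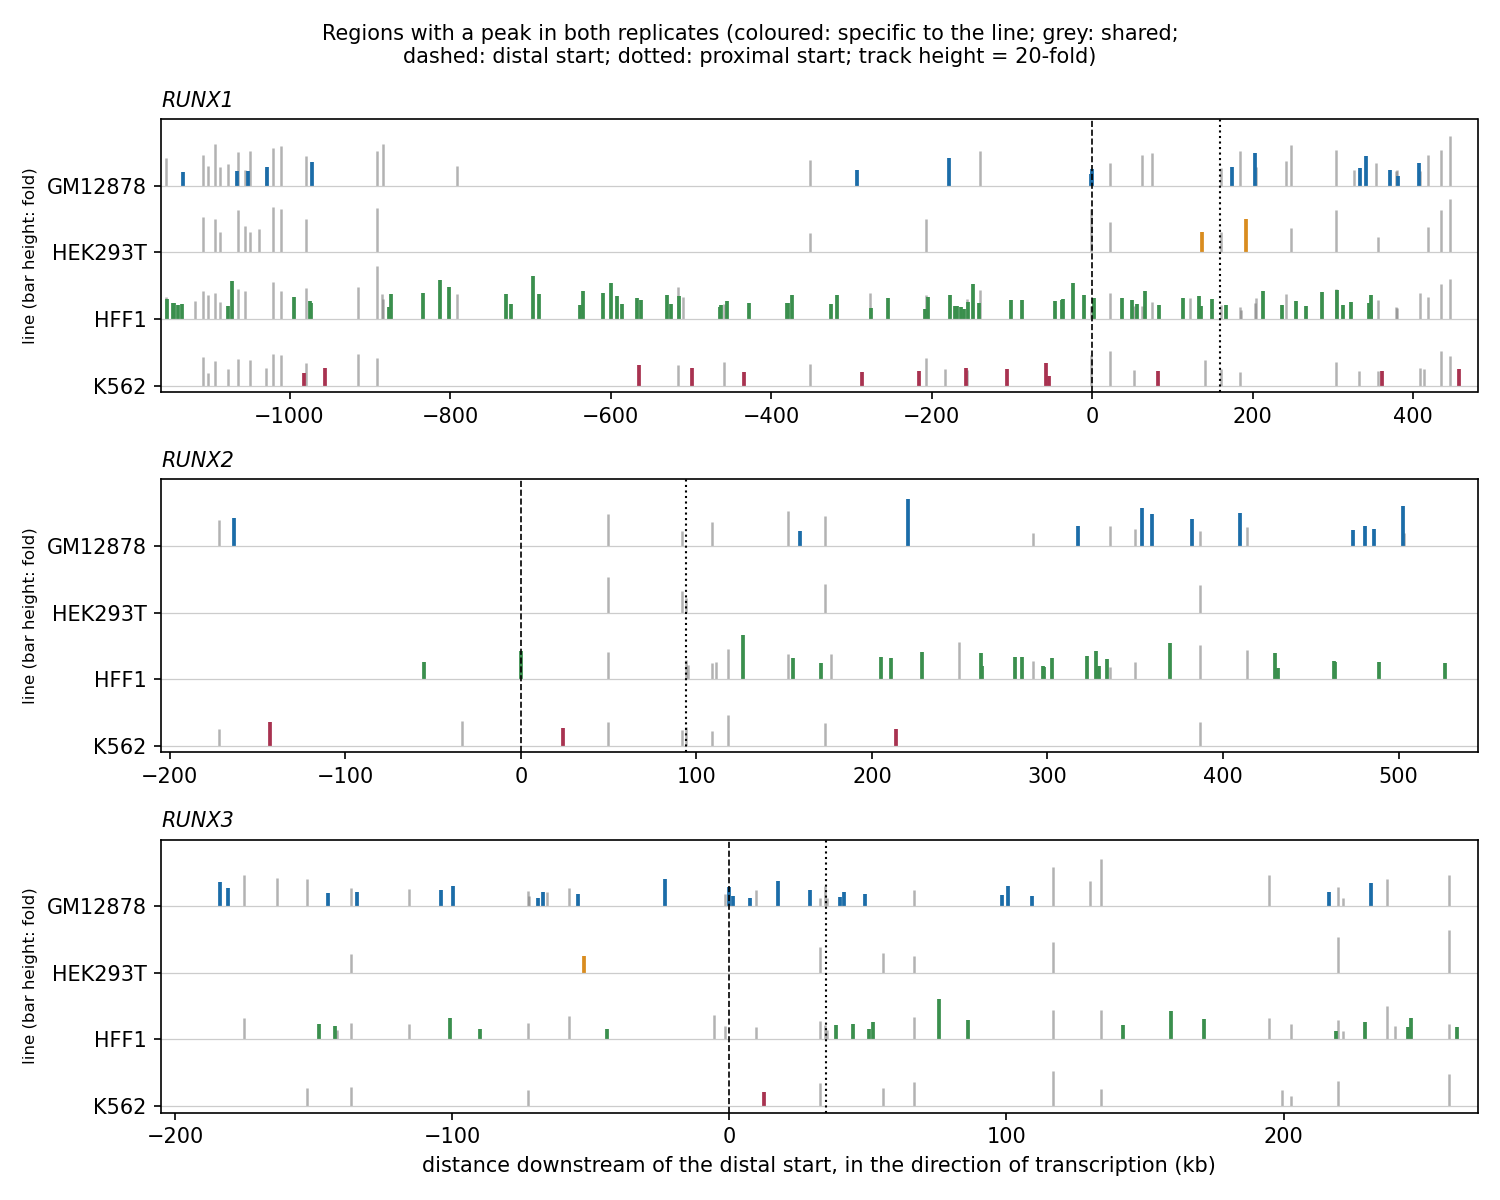
Regions with a peak in both replicates of a line, plotted by distance in kb from the distal start of RUNX1, RUNX2 and RUNX3, in the direction of transcription. Bar height is the mean deposited fold of both replicates within that line's lists, colour marks regions specific to the line and grey those shared with another library. HFF1-specific regions fill the upstream stretch of RUNX1 and the body of RUNX2, and GM12878-specific regions flank both RUNX3 starts.

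Merging the peaks of the 8 libraries gave 493 regions over the 4 loci, of which 376 were called in at least 1 line. Of these 43 were called in all 4 lines, 11.4% beside 11.6% over all regions of the genome. A region was counted as specific to a line when both of its replicates had a peak and no library of another line had one. GM12878 had 59 specific of 172 called regions (34.3%, with 40.6% over all its regions), HEK293T 3 of 63 (4.76%, with 10.8%), HFF1 139 of 261 (53.3%, with 50.5%) and K562 21 of 111 (18.9%, with 25.4%). As a group the loci were close to or below the background.

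The loci differed in which line supplied these regions. At RUNX1, HFF1 had 81 specific of 124 called regions (65.3%), GM12878 16 of 52 (30.8%), K562 14 of 45 (31.1%) and HEK293T 2 of 24 (8.33%). At RUNX2, HFF1 had 27 of 41 (65.9%), GM12878 12 of 24 (50.0%), K562 3 of 12 (25.0%) and HEK293T 0 of 5. At RUNX3, GM12878 had 23 of 46 (50.0%), HFF1 19 of 41 (46.3%), K562 1 of 13 (7.69%) and HEK293T 1 of 8 (12.5%). RUNX1 and RUNX2 were thus above the 50.5% background in HFF1, RUNX2 and RUNX3 above the 40.6% background in GM12878, RUNX1 above the 25.4% background in K562, and RUNX3, with its 1 region, above the 10.8% background in HEK293T. CBFB was below the background in every line, and 22 of its 74 called regions (29.7%) were called in all 4 lines, 16 of these at promoters of other genes.

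With heights scaled to the lowest background level, 19 of the 23 GM12878-specific regions at RUNX3 still passed the threshold in both replicates. At RUNX1 9 of 16 GM12878-specific regions did, at RUNX2 8 of 12 and at CBFB 2 of 8, 38 of 59 in all (64.4%, with 66.9% of all GM12878-specific regions of the genome). The same held for 38 of 81 HFF1-specific regions at RUNX1, 16 of 27 at RUNX2 and 7 of 19 at RUNX3. In all 68 of 139 HFF1-specific regions passed (48.9%, with 52.0% of all HFF1-specific regions). Of the K562-specific regions over the 4 loci 5 of 21 passed (23.8%, with 42.7% of all). By locus these were 2 of 14 at RUNX1, 1 of 3 at RUNX2, 0 of 1 at RUNX3 and 2 of 3 at CBFB. Of the HFF1-specific regions, 63 were distal and inside the RUNX1 body, and 48 of those 63 lay upstream of the distal start.

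**Figure D4:**
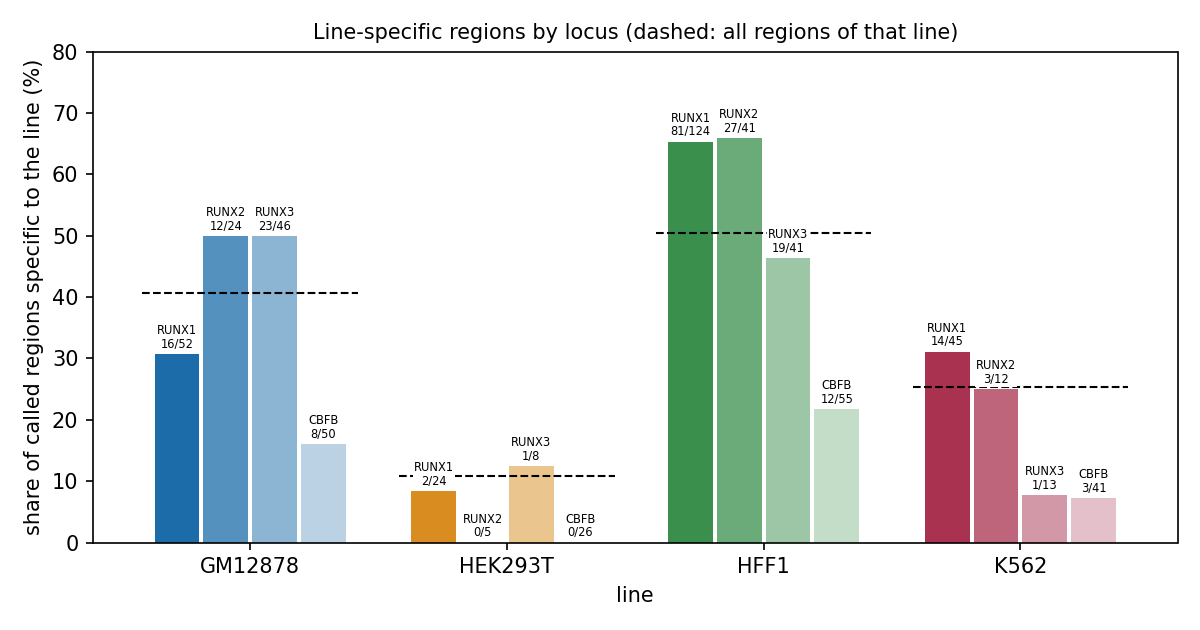
Share of the regions called in a line that no library of another line had, for each locus, with the counts above the bars and the share over all regions of that line as a dashed line. RUNX1 and RUNX2 exceed the dashed line in HFF1 (65.3% and 65.9% against 50.5%), and CBFB lies below it in every line.

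The strongest distal regions specific to a line were named by the lower fold of its 2 replicates. At RUNX1, GM12878 had a region at chr21:34845777-34846124, 43.8 kb downstream of the proximal start, with folds of 10.4 and 13.1. HEK293T had one at chr21:34857871-34858210, 191.3 kb downstream of the distal start, with folds of 11.4 and 12.3. HFF1 had one at chr21:35745554-35745995, at -696.4 kb from the distal start, with folds of 16.5 and 14.1. K562 had one at chr21:35106081-35106916, at -57.2 kb from the distal start, with folds of 7.84 and 7.96. That these 4 regions differ between lines follows from the rule that chose them, and none of them overlapped an exon.

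Their summit sequences are shown as examples of RUNX1 regions chosen for being open in 1 line. They reach 75 bases on either side of the replicate 1 summit on the GRCh38 plus strand. Capitals mark an AP-1 site (TGANTCA) in GM12878 and HFF1, where AP-1 is a dimer that responds to growth and stress signals. In the K562 sequence they mark 2 sites of the erythroid GATA family, searched for by the letters AGATAAG. The GM12878 AP-1 site is not wholly within 50 bp of the summit. Within that distance 0 of 14 GM12878-specific distal regions at RUNX1 held an AP-1 site (11.6% of 32952 such regions genome-wide). Of the HFF1-specific distal regions at RUNX1, 19 of 80 held one (25.3% of 47510 genome-wide). GATA sites were in 3 of 13 K562-specific distal regions at RUNX1 (12.3% of 13920 genome-wide). The shorter RUNX core TGTGGT, also counted later, is not marked. Read on either strand, it is present in the GM12878 and HFF1 sequences.
RUNX1 GM12878 region 1, chr21:34845879-34846029 (+): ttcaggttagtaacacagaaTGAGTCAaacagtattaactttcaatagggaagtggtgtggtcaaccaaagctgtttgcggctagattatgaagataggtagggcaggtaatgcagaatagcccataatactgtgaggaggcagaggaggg
RUNX1 HEK293T region 1, chr21:34858023-34858173 (+): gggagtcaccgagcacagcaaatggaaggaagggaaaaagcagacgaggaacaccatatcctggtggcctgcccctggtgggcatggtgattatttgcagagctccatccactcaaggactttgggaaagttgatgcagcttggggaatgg
RUNX1 HFF1 region 1, chr21:35745753-35745903 (+): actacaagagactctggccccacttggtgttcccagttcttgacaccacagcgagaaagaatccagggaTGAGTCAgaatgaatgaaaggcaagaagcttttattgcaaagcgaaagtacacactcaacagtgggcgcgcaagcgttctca
RUNX1 K562 region 1, chr21:35106327-35106477 (+): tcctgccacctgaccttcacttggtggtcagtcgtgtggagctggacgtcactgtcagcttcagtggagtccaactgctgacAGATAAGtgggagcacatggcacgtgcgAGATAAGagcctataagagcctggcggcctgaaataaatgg
The HEK293T sequence held none of the motifs searched, which were those of RUNX, AP-1, the GATA family, PU.1 (AGAGGAAGT) and the TEAD family (searched as GGAATGT), on both strands. No match says only that these letters are not in this window.

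Among the regions shared by all 4 lines, one inside RUNX1 lies 22.4 kb downstream of the distal start, at chr21:35026410-35027466. Its folds were 7.01 and 9.51 in GM12878, 11.4 and 10.1 in HEK293T, 9.32 and 9.15 in HFF1, and 11.3 and 13.2 in K562. It was therefore open in all 8 libraries, in lines with and without a call at the distal start. Its summit sequence, from the library with the highest fold, is shown because this region was open in every library, and it had a GC content of 68.2%. Capitals mark a RUNX site, which is not wholly within 50 bp of the summit, the window used for the motif counts given later. Within that window 0 of 19 distal regions of the loci called in all 4 lines held these letters (229 of 9529 genome-wide).
RUNX1 shared region, chr21:35026792-35026942 (+): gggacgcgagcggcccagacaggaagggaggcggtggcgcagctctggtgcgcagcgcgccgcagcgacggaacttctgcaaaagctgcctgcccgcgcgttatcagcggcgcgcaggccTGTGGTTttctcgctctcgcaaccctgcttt
RUNX3 also had a region of this kind inside its body, at chr1:24932290-24932682, 32.6 kb downstream of the distal start and so close to the proximal start. Its folds were 2.77 and 2.78 in GM12878, 7.72 and 10.8 in HEK293T, 7.15 and 5.93 in HFF1, and 9.23 and 6.88 in K562. HEK293T and K562, which had no peak at either RUNX3 start, thus had one there. In RUNX2 the regions called in all 4 lines were the SUPT3H promoter between the RUNX2 starts, at chr6:45377094-45378598, and a distal region at chr6:45714773-45715069.

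At RUNX2 the strongest HFF1-specific region lay in the gene body at chr6:45453988-45454890, 126.3 kb downstream of the distal start, with folds of 15.9 and 15.1. The next lay beyond the gene end at chr6:45697478-45698290, with folds of 12.2 and 13.6. GM12878 had one in the body at chr6:45548597-45549131, with folds of 16.9 and 16.5, which overlaps an exon, and one beyond the gene end at chr6:45830381-45830991, with folds of 13.3 and 14.7. K562 regions were weaker in their lists, with folds of 9.31 and 7.77 at chr6:45185038-45185921. HEK293T had none. Both HFF1 summit sequences held an AP-1 site, in capitals. Within 50 bp of the summit, 5 of 26 HFF1-specific distal regions at RUNX2 held one (25.3% of 47510 such regions genome-wide). The region 2 sequence also held the shorter RUNX core TGTGGT on the minus strand, which is not marked.
RUNX2 HFF1 region 1, chr6:45454407-45454557 (+): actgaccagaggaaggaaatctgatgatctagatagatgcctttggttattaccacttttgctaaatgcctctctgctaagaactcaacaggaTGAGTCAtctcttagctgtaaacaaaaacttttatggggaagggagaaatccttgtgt
RUNX2 HFF1 region 2, chr6:45697703-45697853 (+): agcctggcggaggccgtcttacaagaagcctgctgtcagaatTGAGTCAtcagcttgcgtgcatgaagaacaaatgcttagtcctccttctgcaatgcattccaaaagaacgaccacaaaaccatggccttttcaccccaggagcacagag

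At RUNX3 the strongest GM12878-specific regions flanked the distal start. One lay at -23.3 kb, at chr1:24988170-24988597, with folds of 9.48 and 9.36 and heights of 57 and 55 reads. The other lay between the distal and proximal starts, 17.7 kb downstream of the former, at chr1:24947019-24947881, with folds of 8.61 and 9.13 and heights of 74 and 83 reads. Both kept their calls at the lowest background level. The intronic sequence held an AP-1 site, in capitals, and the upstream one none of the motifs searched. Within 50 bp of the summit, 2 of 22 GM12878-specific distal regions at RUNX3 held an AP-1 site (11.6% of 32952 such regions genome-wide). The intronic sequence also held the shorter RUNX core TGTGGT on the minus strand, which is not marked.
RUNX3 GM12878 region 1, chr1:24988349-24988499 (+): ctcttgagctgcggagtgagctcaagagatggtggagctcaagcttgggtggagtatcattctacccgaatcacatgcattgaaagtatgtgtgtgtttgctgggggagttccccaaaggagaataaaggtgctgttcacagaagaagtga
RUNX3 GM12878 region 2, chr1:24947403-24947553 (+): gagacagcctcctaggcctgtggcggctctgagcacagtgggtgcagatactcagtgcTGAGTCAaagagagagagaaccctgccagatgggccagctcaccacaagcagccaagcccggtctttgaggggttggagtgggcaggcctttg
HFF1 had its strongest RUNX3 region downstream of the gene, at chr1:24889208-24889670, with folds of 15.0 and 13.8. The single K562-specific region, at chr1:24952417-24952773, had folds of 4.83 and 5.06 and did not pass at the lowest background level. The HEK293T-specific region at chr1:25017473-25017690 had folds of 5.35 and 6.14.

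At CBFB the specific regions were few. The strongest in GM12878 lay in the body at chr16:67039720-67039911, with folds of 6.87 and 6.59. HFF1 had neighbouring regions downstream of the gene at chr16:67114891-67115273 and chr16:67115500-67115939, with folds of 7.53 and 7.45 in the former and 11.3 and 8.63 in the latter. K562 had one upstream at chr16:66905816-66906161, with folds of 7.82 and 7.17, and HEK293T had none. A start of the non-coding gene ENSG00000288854 is annotated at this K562 region.

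RUNX sites in the peaks of the 4 loci were counted within 50 bp of each summit. The share with TGTGGTT was 4.77% ± 1.07 in GM12878 (4.94% over all its peaks), 0% ± 0 in HEK293T (1.74%), 5.00% ± 0.841 in HFF1 (3.68%) and 1.71% ± 1.31 in K562 (2.29%), as mean ± SD over 2 libraries. HEK293T had 74 and 82 peaks over the loci, and 0 matches there is a small count. By locus the highest share was at RUNX2 in HFF1, 11.4% ± 2.85 of a mean of 52.5 peaks. In HFF1 the loci were above the all-peak share here and below it within 100 bp of the summit (6.11% beside 6.39%).

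At the distal line-specific regions, AP-1 was in 31 of 131 HFF1-specific distal regions of the loci (25.3% of 47510 such regions genome-wide), in 5 of 55 in GM12878 (11.6% of 32952) and in 4 of 20 in K562 (11.2% of 13920). GATA sites were in 4 of 20 in K562 (12.3%), 1 of 131 in HFF1 (0.688%) and 0 of 55 in GM12878 (1.07%). TGTGGTT was in 4 of 55 in GM12878 (7.67%), 6 of 131 in HFF1 (4.79%) and 0 of 20 in K562 (2.79%), and its shorter core TGTGGT in 13 of 55 (16.0%), 13 of 131 (11.2%) and 0 of 20 (9.02%). These counts are descriptions and were not tested.

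Genes that work with RUNX proteins mostly had open start sites, as did most protein-coding genes in each line. The 16 partner genes were co-repressors, co-activators and factors that bind beside RUNX. Of these 14 had a called start site in GM12878, 14 in HEK293T, 15 in HFF1 and 13 in K562. Over all protein-coding genes 71.9%, 67.7%, 76.1% and 70.4% had one in the same lines. All 4 lines had a call at 12 of the 16, and no share over all genes is given for that count. The exceptions were TLE1, a Groucho co-repressor, called in HEK293T and HFF1, SPI1, which encodes the myeloid and B-cell factor PU.1, called in GM12878 and K562, FLI1, an ETS factor, called in all but K562, and ERG, its relative, called in HFF1.

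Known targets were read against the same shares of all genes, 71.9%, 67.7%, 76.1% and 70.4%, with lists of 6 too short for a comparison. Of 6 RUNX1 targets, 4 had a called start in GM12878, 3 in HEK293T, 5 in HFF1 and 2 in K562, and CSF2, a growth factor gene, in none. CSF1R, a macrophage growth factor receptor, and MPO, the myeloperoxidase gene, were called in GM12878 and HFF1, and PF4, a platelet chemokine gene, in HEK293T and HFF1. Of 6 RUNX2 targets, 4 were called in no line, and these were the bone and cartilage genes BGLAP, IBSP, COL10A1 and MMP13, HFF1 included. SP7, an osteoblast factor, was called in GM12878, HFF1 and K562, and SPP1, which encodes osteopontin, in GM12878 and HEK293T. Of 6 RUNX3 targets, all 6 were called in GM12878 and 4 in each of the other lines. Among them CD4, the T-helper co-receptor gene, was called in GM12878 alone and ITGAL, which encodes an integrin of leukocytes, in GM12878 and K562. A called start is open chromatin and does not measure transcription or RUNX binding.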

How the data were processed

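Bulk ATAC-seq peak lists of 8 human libraries (4 lines, 2 replicates) were used. Per the submitters' processing notes, reads were handled with cutadapt 3.2, Bowtie2 2.4.2, Picard and MACS2 2.2.7.1, with hg38 among the builds named. The authors deposited 1 list per library, so replicates were not pooled. In the narrowPeak layout each deposited peak has a fold (a linear ratio over local background), −log10 values of p and of q (lowest q value on that scale about 2.00, a q threshold of 0.01) and a summit offset. Read shift and duplicate filters are not given in the sources used here.

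Peaks were set against GENCODE release 44 (GRCh38). Whole-number heights and backgrounds were recovered from fold and p (100% of peaks, within 0.01 of the −log10 p), and the lowest common background is the background level. To match libraries on this 1 measure, heights and backgrounds were scaled to the lowest background level and peaks were kept at a −log10 p of at least 4.19. The analysis used Python 3.11.15, numpy 2.4.6, pandas 2.3.3, scipy 1.17.1 and pysam 0.24.0, and the permutation test was tested on simulated data. Heights are read counts without molecular identifiers.

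The members and lists were chosen with earlier results of these data known. Named items were the 4 members and their start sites, the 2 distal specific regions per locus and line with the highest lower fold, regions called in all 4 lines, the 3 genes most alike, and fixed lists of partners, targets and cell type markers. Some markers are not reported here. Alternatives covered windows, flanks, thresholds, list length, depth, motif settings, replicates and lines.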

Additional observations from a re-analysis of the deposited data

How the results depend on the processing

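Among the main results, 83 values under alternatives kept their direction and their side of the threshold, 29 lost significance and 21 moved, and none reversed. Of the further values on single promoters and loci, 174 stayed and 18 moved. With a window of 2 kb HEK293T had 6 called start-site clusters, and among the strongest 50000 peaks HFF1 had 3. Scaling to the lowest background level for promoters and regions, and ending the RUNX1 body at its distal start, were chosen after seeing the data.

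All lost calls but that of CBFB at the lowest background level came from settings in which 0 genes of the genome passed, so they say nothing about the members. With the gene body only it was 0.993 for RUNX1, 0.986 for RUNX2, 0.984 for RUNX3 and 0.989 for CBFB (adjusted p 0.0983 each). Among the strongest 50000 peaks it was 0.993, 0.978, 0.994 and 0.965 in the same order, with adjusted p from 0.0528 to 0.0552. At the lowest background level CBFB had 0.864 (adjusted p 0.0829), where 66.5% of all genes passed. Over the runs that left out 1 line each, it ranged from 0.912 to 0.999 for RUNX1, 0.993 to 0.999 for RUNX2, 0.977 to 0.997 for RUNX3 and 0.948 to 0.994 for CBFB, and there the smallest possible p is 0.0667.

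Replicate numbers did not pair the samples: the differences between replicates correlated at -0.0221 to 0.0128 between lines over 19970 genes. With the replicate block, eta squared was 0.994 for RUNX1, 0.999 for RUNX2, 0.991 for RUNX3 and 0.981 for CBFB, with adjusted p from 0.0899 to 0.102, where the smallest possible p is 0.0417.

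Among the strongest 50000 peaks, 28.9 regions per Mb of the loci were called in GM12878 and 31.9 in HFF1 (52.3 and 79.3 with the lists as deposited), and 32 were specific to GM12878, 43 to HFF1 and 13 to K562. At the lowest background level 47.7 per Mb were called in HFF1, with 75 specific to it and 8 to K562. With 1 replicate left out, specific regions numbered 5 and 7 in HEK293T and 38 and 47 in K562. The RUNX motif within 100 bp of the summit was in 7.04% of locus peaks in GM12878, 1.29% in HEK293T, 6.11% in HFF1 and 2.43% in K562 (7.75%, 3.39%, 6.39% and 4.36% of all peaks), and TGTGGT within 50 bp was in 12.6%, 5.14%, 10.1% and 3.80% of those in the same lines (11.6%, 6.89%, 9.22% and 7.69% of all peaks). The cause of these shifts was not tested beyond the alternative's own construction. The lowest listed height was 5 reads in HEK293T and 8 to 10 in the other lines.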
